A study of Mus musculus with 10 samples.

Results

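The genes described here are Fdft1, Sqle, Lss, Cyp51, Msmo1, Nsdhl, Hsd17b7, Sc5d and Dhcr7, which encode the enzymes that turn farnesyl diphosphate into squalene, lanosterol and cholesterol. They were chosen by name and by their place in the pathway, with earlier results of these data known. All 9, of 8251 genes named on the arrays, had at least 1 probe set, a group of short probes that together report 1 transcript. They had 12 probe sets in all, 10 of them among the 9977 probe sets that both array designs of the study carried, and the probe sets of Lss and Msmo1 among the 12422 of 1 design only. RNA came from cultured cortical neurons of foetal Swiss albino mice (gestation day 15 to 16), kept in a serum-free medium during treatment, which began on day 5 in vitro. The 10 samples, 1 array each, were 3 with 1 µM lactacystin for 24 h, 3 with 1 µM lactacystin for 48 h, 2 controls at 24 h and 2 controls at 48 h. Lactacystin, stored in DMSO, is an irreversible inhibitor of the proteasome, and the series asks how neurons respond to it at the level of transcripts. Whether the control medium held the solvent is not in the labels. Nor do they tell if replicates came from separate cultures, and p-values therefore reflect only how far these samples spread, which may be technical.

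Neurons and glia of the brain make their own cholesterol, because the blood-brain barrier keeps out the cholesterol of plasma lipoproteins. Acetyl-CoA is built up through mevalonate to farnesyl diphosphate, and the enzymes described here then carry the carbon to sterols alone. Transcription of the whole pathway is governed mainly by SREBP2, a membrane-bound transcription factor that SCAP escorts from the endoplasmic reticulum to the Golgi when sterols are scarce, where proteases release its active part. INSIG proteins hold that complex back when sterols are plentiful. SREBPs bind sterol regulatory elements and usually act together with NF-Y, which binds CCAAT boxes, and Sp1, which binds GC boxes.

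For description only, the promoters of the genes were searched for these letters, on both strands. The windows ran from 250 bases before to 50 bases after the transcription start (RefSeq, GRCm38.p6). Windows were found for 7 of the 9 genes, 9 windows in all, of which Dhcr7 had 3. Fdft1 and Sqle had no entry. The 4 windows that follow belong to steps that follow lanosterol, from the removal of a methyl group of lanosterol by Cyp51 to the reduction by Hsd17b7, and show how the number of CCAAT boxes varied among them. Each is written 5′ to 3′ on the strand of its gene, and capitals mark CCAAT or its reverse complement.
Cyp51 (chr5:4104648-4104947, minus strand): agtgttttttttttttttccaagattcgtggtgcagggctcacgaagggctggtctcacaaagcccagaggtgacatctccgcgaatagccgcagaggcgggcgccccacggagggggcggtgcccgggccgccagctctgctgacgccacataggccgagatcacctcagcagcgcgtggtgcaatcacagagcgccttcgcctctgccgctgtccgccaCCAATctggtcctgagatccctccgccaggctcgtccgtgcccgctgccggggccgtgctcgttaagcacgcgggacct
Msmo1 (chr8:64733529-64733828, minus strand): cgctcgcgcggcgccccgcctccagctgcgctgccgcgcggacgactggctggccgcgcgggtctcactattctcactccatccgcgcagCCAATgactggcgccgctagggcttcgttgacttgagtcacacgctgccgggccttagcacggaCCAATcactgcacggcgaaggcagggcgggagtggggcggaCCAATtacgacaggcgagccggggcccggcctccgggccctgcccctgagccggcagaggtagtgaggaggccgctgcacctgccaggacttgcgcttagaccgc
Nsdhl (chrX:72918271-72918570, plus strand): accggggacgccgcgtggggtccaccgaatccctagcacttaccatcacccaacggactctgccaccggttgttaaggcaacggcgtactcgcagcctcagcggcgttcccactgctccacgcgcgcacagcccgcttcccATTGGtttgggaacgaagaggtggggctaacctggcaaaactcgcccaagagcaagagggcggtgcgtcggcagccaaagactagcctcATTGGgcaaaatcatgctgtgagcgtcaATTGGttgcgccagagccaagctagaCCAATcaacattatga
Hsd17b7 (chr1:169969156-169969455, minus strand): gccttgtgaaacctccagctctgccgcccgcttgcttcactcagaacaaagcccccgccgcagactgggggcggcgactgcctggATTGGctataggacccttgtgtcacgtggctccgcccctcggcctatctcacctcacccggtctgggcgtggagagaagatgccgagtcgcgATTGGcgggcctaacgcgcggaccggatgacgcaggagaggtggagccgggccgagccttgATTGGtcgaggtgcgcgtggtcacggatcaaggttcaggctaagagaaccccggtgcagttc
Cyp51 had 1 CCAAT box, Msmo1 3, Nsdhl 4 and Hsd17b7 3. Of the windows not shown, those of Lss and Sc5d had 1 each and those of Dhcr7 had 0, 0 and 2. CCAAT was found in all 7 genes with a window, against 41.1% of all 27025 genes in the table. It was found in 7 of their 9 windows, against 37.4% of all 32851 windows. GGGCGG was found in all 7 genes (38.2% of all genes) and in 8 of 9 windows (35.7% of all windows). CANNTG, the general E-box, was found in 6 of 7 genes (75% of all genes) and 8 of 9 windows (72.3% of all windows). No window of the 7 genes held TCACNCCAC, a form of the sterol regulatory element that 1.24% of all windows held. No CCAAT match overlapped a GGGCGG match, whereas the CANNTG match in the Nsdhl window overlapped one of its CCAAT matches. These matches describe letters in the windows, not binding.

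The arrays were of mixed design. Each group had 1 array of the Affymetrix design U74A (the first replicate, or the third in the lactacystin group at 48 h), and the other 6 arrays were of its revision, U74Av2. Signals are given as deposited intensities, scaled so that the trimmed mean of each array is 500, and log2 changes are of the signal plus 32, fitted with the array design as a covariate. Of the shared probe sets, 6984 were tested, among them all 10 of the enzymes, and adjusted p-values are from limma with Benjamini-Hochberg adjustment over all of them. Markers of neurons were present in every group, with summed signals of 11150 to 15770 in lactacystin arrays and 16520 to 22810 in control arrays at 24 h, and of 12530 to 21530 in lactacystin arrays and 20160 to 24610 in control arrays at 48 h. Markers of astrocytes and radial glia were also present in every group. In such bulk samples fewer cells of a type and less RNA per cell cannot be told apart.

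Transcripts of the enzymes from squalene synthesis to cholesterol fell under lactacystin at both times. At 24 h all 10 shared probe sets, standing for 7 genes, passed the test in the direction of a fall, where 6.63% of all tested probe sets did (463 of 6984). Their changes ran from -2.12 to -0.85 on the log2 scale with a median of -1.66, against a median of -0.03 over all tested probe sets. At 48 h 8 of the 10 passed, standing for 6 of the 7 genes, where 3.57% of all tested probe sets did (249 of 6984). Their changes ran from -1.60 to -0.57 with a median of -1.35, against 0.04 over all tested probe sets. With arrays scaled to a common median instead, 640 probe sets fell at 48 h and 288 rose (249 and 472 here), and 9 of the 10 were among the falls. Mean signals under lactacystin were 20.2% to 45.4% of control at 24 h and 31.2% to 55.9% of control at 48 h. No enzyme rose at either time.

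**Figure D1:**
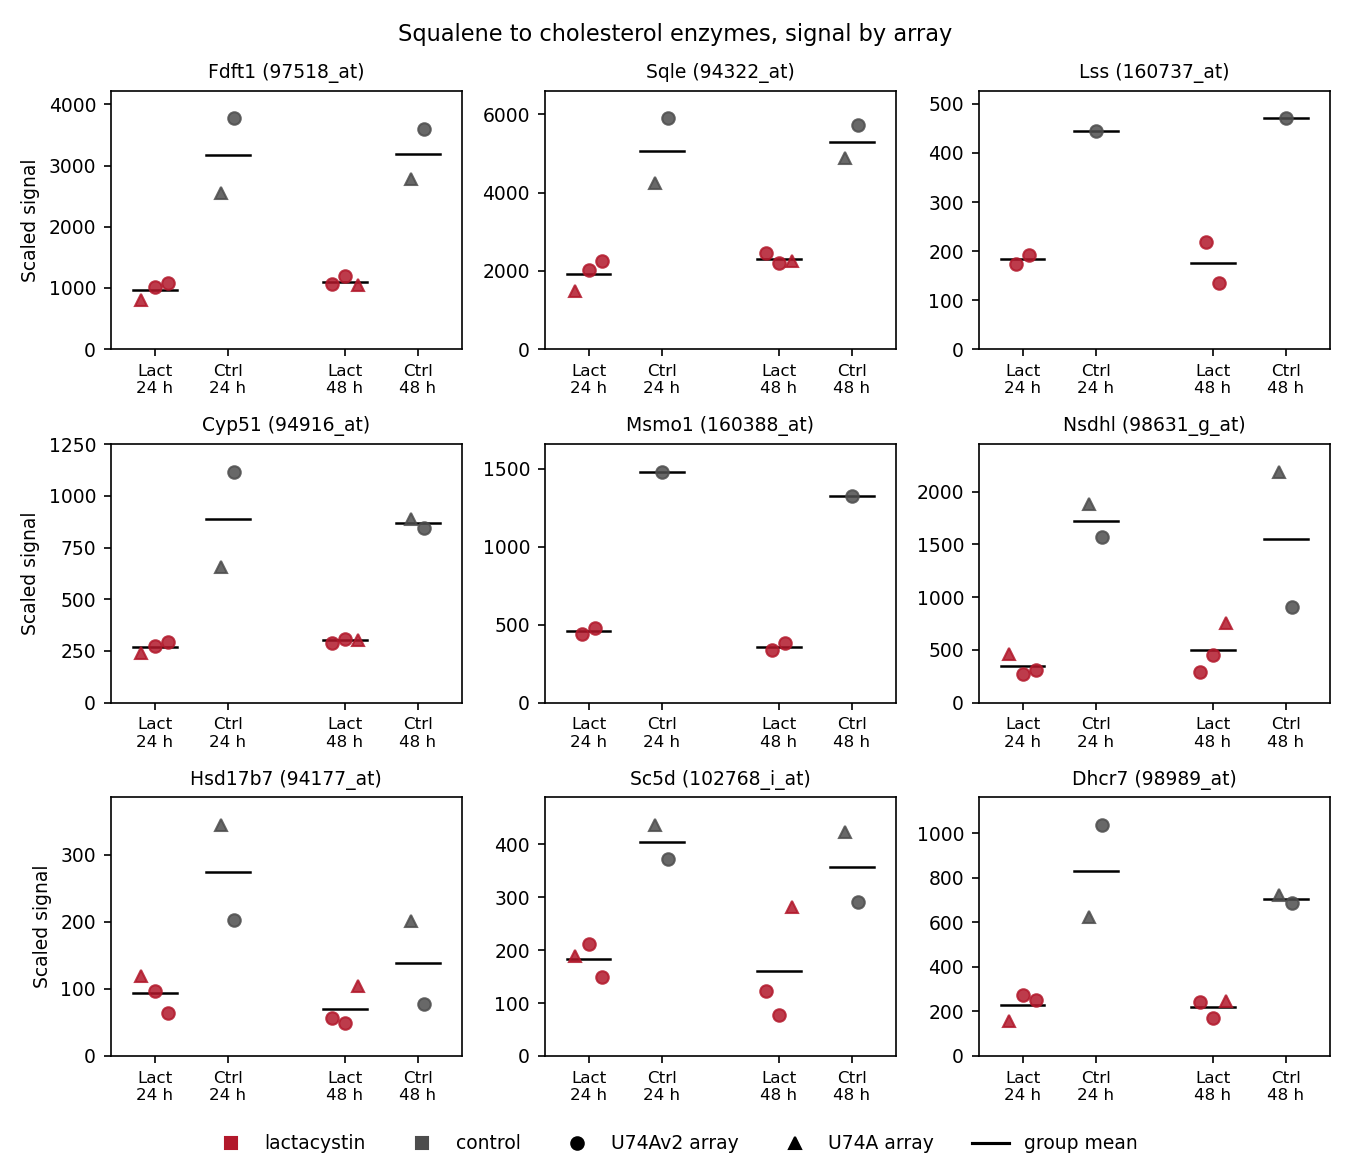
Scaled signal (arbitrary units, linear axis from 0) of 1 probe set per gene on every array, with lactacystin left of control at each time, circles for U74Av2 arrays, triangles for U74A arrays and bars for group means. All lactacystin arrays lie below every control of the same time in each panel except that of Hsd17b7 at 48 h. There 1 lactacystin array at 105 lies above 1 control at 77.6. The panels of Lss and Msmo1 hold 1 control per time.

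Signals of the enzymes were lower under lactacystin within each array design. Within U74A, with 1 lactacystin and 1 control array at each time, the changes of the 10 probe sets ran from -1.98 to -1.09 at 24 h and from -1.50 to -0.38 at 48 h. Within U74Av2, with 2 lactacystin arrays and 1 control at each time, they ran from -2.30 to -0.70 and from -1.66 to -0.38. At 24 h the lactacystin arrays lay below both controls for 10 of the 10 probe sets, a separation that 18.9% of all tested probe sets showed in that direction. At 48 h 8 of the 10 were separated in this way, against 9.91% of all tested probe sets. Ranked by change from the most negative, the 10 probe sets held places 6 to 103 of 6984 at 24 h and 7 to 216 at 48 h, with 9 and 8 of them among the lowest 100.

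**Figure D2:**
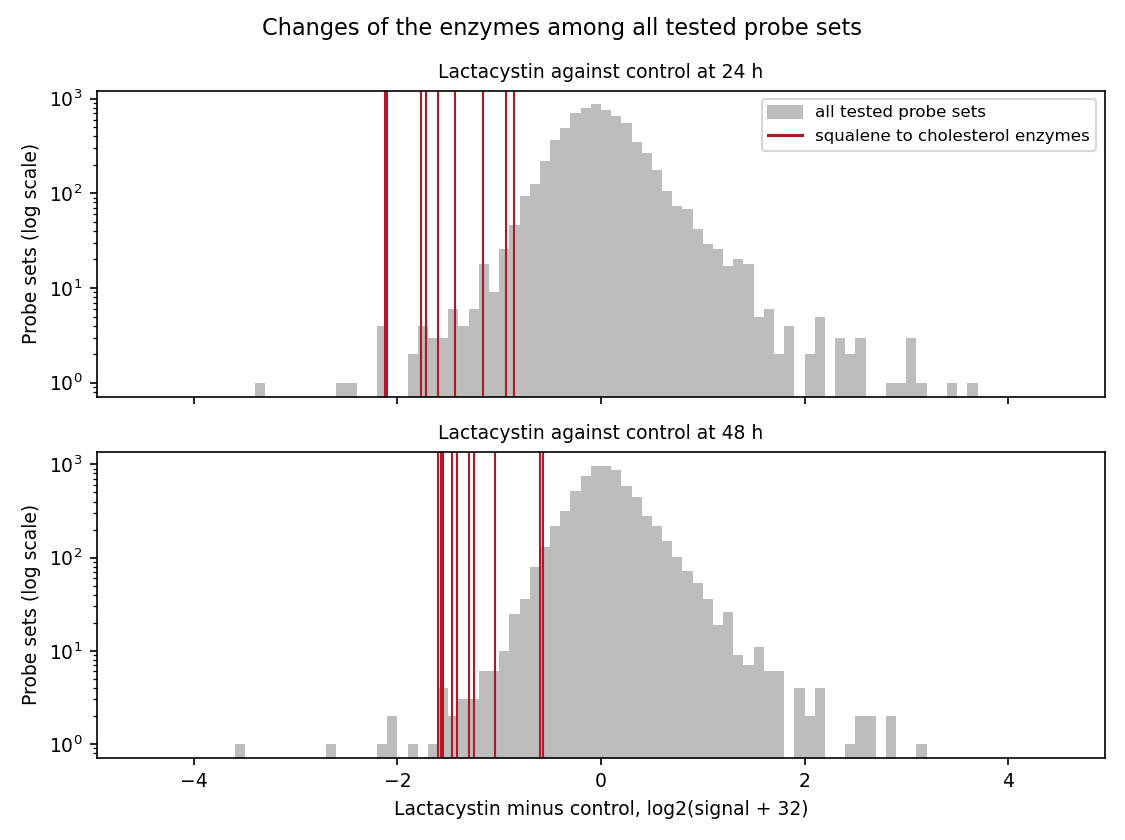
Distribution of the log2 change under lactacystin over the 6984 tested probe sets (grey bars, counts on a log axis), at 24 h above and 48 h below, with a red line at the change of each of the 10 shared probe sets of the enzymes. At 24 h the lines lie between -2.12 and -0.85, and at 48 h between -1.60 and -0.57.

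Fdft1 encodes squalene synthase, which joins a pair of farnesyl diphosphate molecules and so commits the pathway to sterols. Its signal at 24 h was 803, 1018 and 1088 in lactacystin arrays, against 2559 and 3775 in control arrays. The 48 h signal was 1058, 1188 and 1056 in lactacystin arrays, against 2782 and 3604 in control arrays. The highest lactacystin array lay well below the lowest control at both times. The mean was 970 ± 149 under lactacystin (SD, n = 3) and 3167 ± 860 in controls (SD, n = 2) at 24 h, or 30.6% of control, and 34.5% of control at 48 h. The fitted change was -1.72 ± 0.12 (SE, adjusted p = 2.65e-05, limma) at 24 h and -1.55 ± 0.12 (adjusted p = 5.13e-05) at 48 h.

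Sqle encodes squalene epoxidase, which uses molecular oxygen to make the epoxide that is later cyclised and is a rate-limiting step of sterol synthesis. Its signal at 24 h was 1490, 2029 and 2246 in lactacystin arrays, against 4234 and 5898 in control arrays. The 48 h signal was 2449, 2200 and 2243 in lactacystin arrays, against 4878 and 5722 in control arrays. The groups did not overlap at either time, and the lactacystin arrays at 48 h spread less than those at 24 h (SD 389 at 24 h and 133 at 48 h, n = 3 each). The change was -1.44 ± 0.13 (adjusted p = 4.58e-05, limma) at 24 h and -1.24 ± 0.13 (adjusted p = 0.000273) at 48 h, with means at 37.9% and 43.4% of control.

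Lss encodes lanosterol synthase, which folds squalene epoxide into the first sterol, lanosterol. It and Msmo1 were measured on the U74Av2 arrays alone, where the fit had 8696 probe sets, 2 lactacystin arrays and 1 control per time, and the lone control was assumed to vary like the lactacystin pairs. Lss had signals of 174.5 and 191 in lactacystin arrays, against 445 in the control array at 24 h. At 48 h it had 217.5 and 136 in lactacystin arrays, against 471 in the control array. All 4 lactacystin arrays lay below both controls. The change was -1.15 ± 0.26 at 24 h, with an adjusted p of 0.0506 (limma) just over the threshold of 0.05, and -1.30 ± 0.26 at 48 h, with an adjusted p of 0.0454. In this smaller fit 2.96% of probe sets fell at 24 h and 1.85% at 48 h. The 24 h value lies at the edge of the threshold, since adjusted p-values over 15 alternative settings ran from 0.00763 to 0.119, and at 48 h from 0.00759 to 0.1. The lowest adjusted p-values at 24 h came from leaving out lactacystin 48 h replicate 1 or 2. The 24 h change stayed at -1.15, and only its SE fell, from 0.26 to 0.15 or 0.14. Only the 24 h lactacystin pair was then left to show the spread of Lss within a group.

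Cyp51 encodes lanosterol demethylase, a cytochrome P450 that strips the first methyl group from lanosterol. Its signal at 24 h was 241, 274 and 291 in lactacystin arrays, against 656 and 1118 in control arrays. At 48 h signals were 291, 308 and 305 in lactacystin arrays, against 889 and 845 in control arrays. The 6 lactacystin arrays lay close together, whereas the 24 h controls lay apart, with the U74Av2 array the higher. The change was -1.60 ± 0.17 (adjusted p = 0.000134, limma) at 24 h and -1.46 ± 0.17 (adjusted p = 0.000469) at 48 h, with means at 30.3% and 34.8% of control.

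Msmo1, Nsdhl and Hsd17b7 encode the enzymes that act in turn to remove the paired methyl groups of a single ring carbon, as an oxidase, a decarboxylating dehydrogenase and a ketone reductase. Msmo1 had signals of 438 and 478 in lactacystin arrays, against 1482 in the control array at 24 h. At 48 h it had 334.5 and 384 in lactacystin arrays, against 1324 in the control array. The lactacystin pairs were tight and far below the single controls. The change of Msmo1 was -1.63 ± 0.15 at 24 h (adjusted p = 0.00366, limma) and -1.80 ± 0.15 at 48 h (adjusted p = 0.00501), and it passed in all 15 alternative settings at each time.

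Nsdhl, an X-linked gene, had 3 probe sets, of which 98631_g_at and 93868_at had the most negative 24 h changes of the enzymes. Its brightest, 98631_g_at, had 461, 273 and 312 in lactacystin arrays, against 1883 and 1568 in control arrays at 24 h. At 48 h it had 289, 451 and 752 in lactacystin arrays, against 2190 and 904 in control arrays. The groups did not overlap, but at 48 h the highest lactacystin array and the lowest control came near each other, the first on U74A and the second on U74Av2. This probe set read 0.78 lower on the log2 scale on U74Av2 than on U74A, the largest such offset among the 10. Its change was -2.10 ± 0.22 (adjusted p = 0.000104, limma) at 24 h and -1.41 ± 0.22 (adjusted p = 0.00233) at 48 h. Without the array design as a covariate the 48 h adjusted p was 0.116.

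The other Nsdhl probe sets gave the same direction. Probe set 93868_at had 288, 236 and 260 in lactacystin arrays, against 1231 and 1342 in control arrays at 24 h, and 263, 351 and 486 in lactacystin arrays, against 1331 and 1016 in control arrays at 48 h. It changed by -2.12 ± 0.18 (adjusted p = 3.82e-05, limma) and -1.58 ± 0.18 (adjusted p = 0.00036). Probe set 98630_at had 308.5, 218 and 249 in lactacystin arrays, against 1059 and 866 in control arrays at 24 h, and 281, 340 and 460 in lactacystin arrays, against 1085 and 841 in control arrays at 48 h. It changed by -1.72 ± 0.13 (adjusted p = 3.09e-05) and -1.29 ± 0.13 (adjusted p = 0.000308).

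Hsd17b7, the ketone reductase, had the 48 h change nearest to 0 of the enzymes. Its signal at 24 h was 119, 97.4 and 63.8 in lactacystin arrays, against 344 and 203 in control arrays. At 48 h signals were 56.5, 48.7 and 105 in lactacystin arrays, against 201 and 77.6 in control arrays. The groups were apart at 24 h and overlapped at 48 h, where the third lactacystin array, on U74A, exceeded the U74Av2 control. The change was -1.16 ± 0.20 (adjusted p = 0.00344, limma) at 24 h and -0.57 ± 0.20 (adjusted p = 0.104) at 48 h, which did not pass. Without control 24 h replicate 2 the 24 h change of -1.14 had an adjusted p of 0.0615, and without the design covariate its adjusted p was 0.116. The 24 h call was also lost on U74Av2 arrays alone, where the change was -1.08. With median scaling or quantile normalization the 48 h change was -0.68 or -0.74 and passed (adjusted p = 0.0407 and 0.0419).

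Sc5d encodes lathosterol oxidase, which introduces a double bond into the ring, and its 2 probe sets had the 24 h changes nearest to 0 of the enzymes. The brighter, 102768_i_at, had 189, 211 and 149.5 in lactacystin arrays, against 436 and 371 in control arrays at 24 h. At 48 h it had 123, 78.0 and 281 in lactacystin arrays, against 423 and 291 in control arrays. The groups did not overlap, although at 48 h the U74A lactacystin array came within 10 of the U74Av2 control. The change was -0.94 ± 0.27 (adjusted p = 0.0385, limma) at 24 h and -1.04 ± 0.27 (adjusted p = 0.0318) at 48 h.

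The dimmer Sc5d probe set, 102769_f_at, had 76.1, 105 and 76.8 in lactacystin arrays, against 216 and 166 in control arrays at 24 h. At 48 h it had 52.55, 46.4 and 120 in lactacystin arrays, against 166 and 95.6 in control arrays, and the groups overlapped. It changed by -0.85 ± 0.25 (adjusted p = 0.0406, limma) at 24 h and by -0.60 ± 0.25 (adjusted p = 0.162) at 48 h. The Sc5d calls were not stable. At 24 h that of 102768_i_at was lost without lactacystin 24 h replicate 1 or 3, without lactacystin 48 h replicate 1 or without any 1 of the 4 controls (-1.12 to -0.69, adjusted p = 0.0514 to 0.358, limma). That of 102769_f_at was lost without lactacystin 24 h replicate 1 or 3 or without any 1 of the 4 controls (-0.90 to -0.54, adjusted p = 0.0505 to 0.279), and its change was nearest to 0 without lactacystin 24 h replicate 1. At 48 h that of 102768_i_at was lost without lactacystin 48 h replicate 1 or 2 or without either 48 h control (-1.07 to -0.80, adjusted p = 0.0662 to 0.218). All 3 Sc5d calls were also lost with no filter on low probe sets, without the design covariate and on U74Av2 arrays alone (adjusted p = 0.0552 to 0.203).

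Dhcr7 encodes the reductase that completes cholesterol. Its signal at 24 h was 155, 272 and 253 in lactacystin arrays, against 625 and 1036 in control arrays. Later, at 48 h, it was 242, 169 and 247 in lactacystin arrays, against 721 and 685 in control arrays. All 6 lactacystin arrays lay far below all 4 controls. The change was -1.77 ± 0.23 (adjusted p = 0.000587, limma) at 24 h and -1.60 ± 0.23 (adjusted p = 0.00165) at 48 h, the most negative of the shared enzymes at the later time, with means at 27.3% and 31.2% of control.

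**Figure D3:**
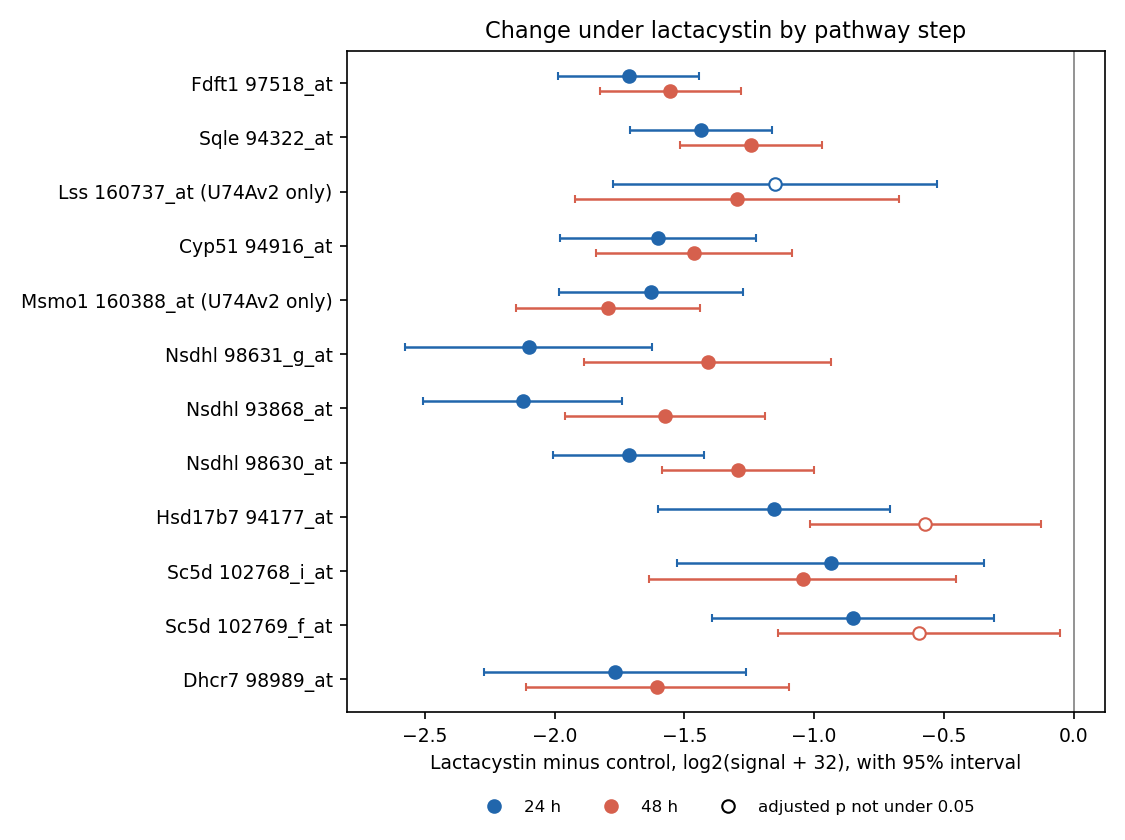
Log2 change under lactacystin at 24 h (blue) and 48 h (red) for the 12 probe sets in pathway order, with 95% confidence intervals as bars and open points where the adjusted p was not under 0.05. All points lie below 0, and the open ones are Lss at 24 h, Hsd17b7 at 48 h and Sc5d 102769_f_at at 48 h.

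The change at 48 h was set against that at 24 h in the same fit, and the difference passed the test for none of the 10 shared probe sets nor for Lss and Msmo1, where 1.29% of all tested shared probe sets and 0.138% of those in the U74Av2 fit passed. Over all tested probe sets 41.8% had a negative difference, and the median difference was 0.07 (-0.1 with median scaling). Among the 10 the difference was positive, a less negative change at 48 h, for 9, but several of these are probe sets of the same gene. For the Nsdhl probe sets it was 0.69 (95% interval 0.02 to 1.36) for 98631_g_at, 0.55 (0.01 to 1.09) for 93868_at and 0.42 (0.01 to 0.83) for 98630_at, with adjusted p-values of 0.292, 0.3 and 0.294 (limma). For Hsd17b7 it was 0.58 (-0.04 to 1.21, adjusted p = 0.343). For Fdft1 it was 0.16 (-0.22 to 0.54), for Sqle 0.19 (-0.19 to 0.58) and for Cyp51 0.14 (-0.39 to 0.67). For Lss and Msmo1, in the U74Av2 fit, it was -0.15 (-1.03 to 0.74) and -0.17 (-0.67 to 0.33). The intervals are not adjusted for the number of probe sets. The sign of the difference changed under some alternative settings for Fdft1 (-0.03 to 0.30), Cyp51 (-0.21 to 0.49), Dhcr7 (-0.12 to 0.45), Lss (-0.43 to 0.14) and both Sc5d probe sets.

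The lactacystin arrays of the 2 times were also compared directly. Among the 10 shared probe sets only Nsdhl 98630_at passed, where 6.19% of all tested probe sets rose, with 0.42 ± 0.12 higher signal at 48 h (adjusted p = 0.0428, limma). That call was lost in 16 of 23 alternative settings, with adjusted p-values of 0.0344 to 0.391, among them those without any 1 of the arrays except lactacystin 48 h replicate 1. Without that array Nsdhl 93868_at passed as well (adjusted p = 0.0432, limma). In the controls 0 tested probe sets (0%) passed between the times in limma, the enzymes included, with 390 at an unadjusted p under 0.05. Hsd17b7 had the most negative control change of the enzymes, -0.90 ± 0.22 (adjusted p = 0.591), with 201 and 77.6 at 48 h, against 344 and 203 at 24 h.

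The enzymes also moved alike across arrays. With the array design removed, their mean over 7 genes was 8.56, 8.81 and 8.74 in lactacystin arrays, against 10.07 and 10.40 in control arrays on the log2 scale at 24 h. Later, at 48 h, it was 8.69, 8.63 and 8.97 in lactacystin arrays, against 10.13 and 9.93 in control arrays. The correlation of each probe set with the mean of the other 6 genes ran from 0.785 for Hsd17b7 to 0.989 for Dhcr7 over the 10 arrays, which fall apart by treatment, so that any gene with a large treatment effect scores high. Outside the enzymes the highest correlations with their mean were those of Ina (0.989), a neuronal intermediate filament protein, Fdps (0.983) and Idi1 (0.979), enzymes of the mevalonate pathway, Pcyt2 (0.979), an enzyme of phosphatidylethanolamine synthesis, and Rnf208 (0.978), a RING finger protein. Their 24 h changes were -0.80 ± 0.10 for Ina, -2.13 ± 0.12 for Fdps, -2.52 ± 0.14 for Idi1, -0.97 ± 0.13 for Pcyt2 and -0.52 ± 0.10 for Rnf208.

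Upstream of squalene, 4 of the 5 mevalonate pathway genes tested on both designs fell at 24 h and 3 of 5 at 48 h, with medians of -1.55 and -0.90. These values depend on which probe set stands for Mvk, mevalonate kinase: with its dimmer one, a choice made after seeing the data, 4 of 5 fell at each time and the medians were -2.13 and -2.08. Idi1, which isomerises the basic isoprenoid unit, changed by -2.52 ± 0.14 at 24 h (adjusted p = 4.59e-06, limma) and -2.11 ± 0.14 at 48 h (adjusted p = 1.46e-05). Mvd, the decarboxylase of the pathway, was measured on U74Av2 alone and changed by -3.16 ± 0.17 (adjusted p = 0.00153) and -2.08 ± 0.17 (adjusted p = 0.00481). The 2 Mvk probe sets differed in size, with -2.19 ± 0.23 and -2.08 ± 0.23 for 95632_f_at and -0.99 ± 0.17 and -0.30 ± 0.17 for 95633_r_at, the last not past the test (adjusted p = 0.319).

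Among other late steps 1 of the 3 genes tested on both array designs fell at each time. It was Tm7sf2, the sterol reductase that follows Cyp51, at -0.78 ± 0.13 (adjusted p = 0.00244, limma) and -0.93 ± 0.13 (adjusted p = 0.00146), with a dimmer probe set at -1.86 ± 0.25 and -1.12 ± 0.25. Ebp, the sterol isomerase that acts before Sc5d, had -0.44 ± 0.19 at 24 h (adjusted p = 0.148), and Erg28, which in yeast holds the demethylation enzymes together, had -0.38 ± 0.16 (adjusted p = 0.134). Lbr, a further sterol reductase, was tested on U74Av2 alone and had -0.09 ± 0.15 (adjusted p = 0.748). Neither of the 2 genes of SREBP regulation tested on both designs passed at either time: Srebf1, which encodes the related SREBP1, had -0.20 ± 0.14 and 0.11 ± 0.14, and Mbtps1, a protease that releases SREBPs, had 0.24 ± 0.12 and 0.31 ± 0.12. Insig1 lay under a signal of 32 on every array and was not tested. The other listed genes of SREBP regulation, Srebf2, Scap, Insig2 and Mbtps2, had no probe set under their symbol alone on U74Av2 and were not examined.

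Of uptake and other SREBP2 targets, neither of the 2 genes tested on both array designs passed, with Tmem97, a sterol-regulated membrane protein, at -0.66 ± 0.20 (adjusted p = 0.0521, limma) and -0.64 ± 0.20 (adjusted p = 0.0699), and Npc1, which exports cholesterol from lysosomes, at 0.08 ± 0.16 and 0.41 ± 0.16. Npc2, the soluble partner of Npc1, was tested on U74Av2 alone and fell at 24 h by 0.50 ± 0.10 on the log2 scale (adjusted p = 0.0399), with 0.28 ± 0.10 at 48 h (adjusted p = 0.17). No call was made for the 2 subunit genes of farnesyltransferase, an enzyme that draws on farnesyl diphosphate for another purpose, at -0.76 ± 0.27 and -0.13 ± 0.27 for Fntb and at 0.16 ± 0.10 and 0.08 ± 0.10 for Fnta. Of cholesterol turnover, the 1 gene tested on both array designs was Abca1, which exports cholesterol from cells and rose at 48 h by 1.18 ± 0.21 (adjusted p = 0.00471, limma), with 0.36 ± 0.21 at 24 h (adjusted p = 0.28). Abcg1, another exporter, was tested on U74Av2 alone and did not pass, with -0.42 ± 0.18 at 24 h (adjusted p = 0.203) and 0.27 ± 0.18 at 48 h (adjusted p = 0.419).

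**Figure D4:**
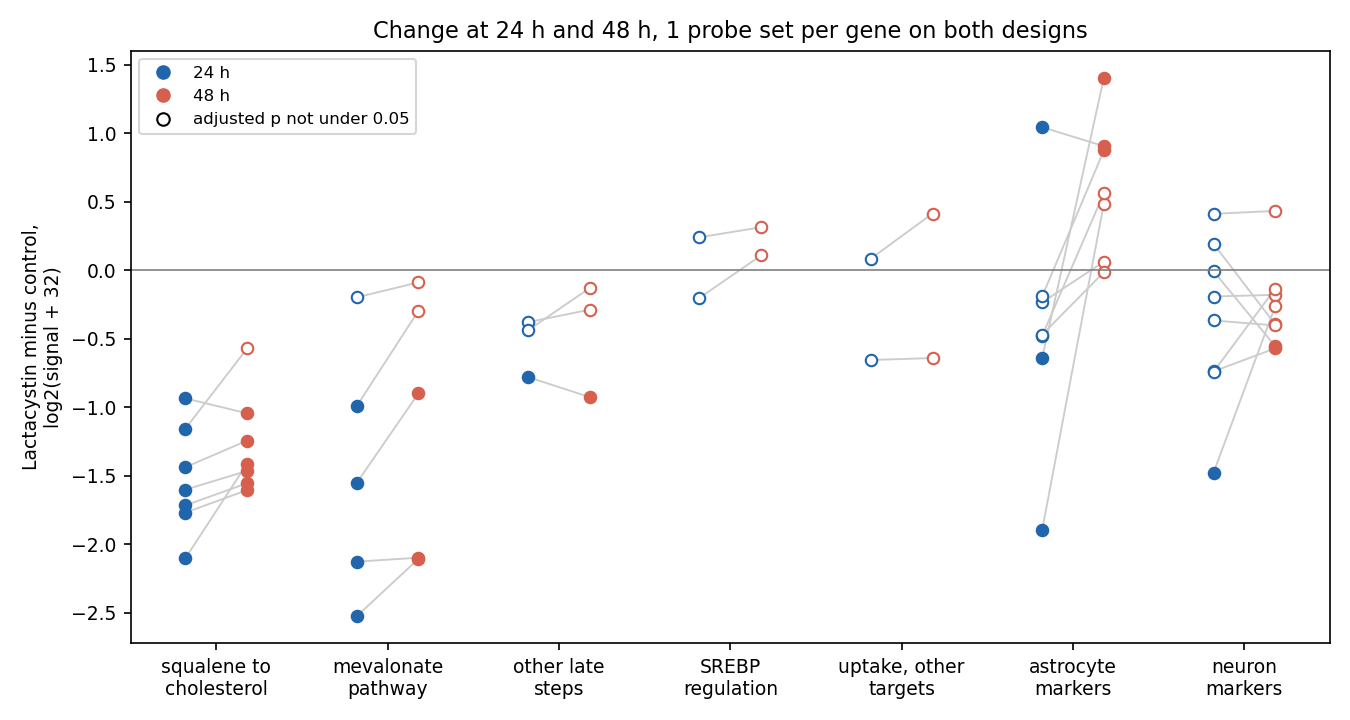
Log2 change under lactacystin at 24 h (blue) and 48 h (red) for 1 probe set per gene on both array designs, with lines joining the values of a gene and open points where the adjusted p was not under 0.05. The enzymes from squalene to cholesterol lie between -2.10 and -0.57 at both times, and the astrocyte markers lie between -1.89 and 1.40.

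Markers of other cells also changed. On both array designs 7 markers of astrocytes and radial glia were tested. At 24 h 2 of them fell and 1 rose, and at 48 h 3 rose and none fell. Of all tested probe sets 6.63% fell and 8.15% rose at 24 h, and 3.57% fell and 6.76% rose at 48 h. Aqp4, the astrocyte water channel, had -1.89 ± 0.18 at 24 h (adjusted p = 7.23e-05, limma) and 0.49 ± 0.18 at 48 h (adjusted p = 0.111), and Gfap, the astrocyte filament protein, had -0.64 ± 0.15 (adjusted p = 0.0155) and 1.40 ± 0.15 (adjusted p = 0.000324). Gja1, the astrocyte gap junction protein, went the other way at 24 h, with 1.04 ± 0.16 (adjusted p = 0.00137) and 0.90 ± 0.16 (adjusted p = 0.00459), and Aldoc, on U74Av2 alone, had -1.73 ± 0.15 (adjusted p = 0.00353) and 0.51 ± 0.15 (adjusted p = 0.115). The summed signal of 8 such markers, which did not move alike, was 11400 to 16130 in lactacystin arrays and 11940 to 17850 in control arrays at 24 h, and 15300 to 18610 in lactacystin arrays and 12230 to 18080 in control arrays at 48 h. The enzymes summed over 7 genes to 3458 to 4403 in lactacystin arrays and 10740 to 13970 in control arrays at 24 h, and to 4443 to 4990 in lactacystin arrays and 12080 to 12130 in control arrays at 48 h. The ranges of the astrocyte marker sum overlapped between treatments at both times. Those of the neuron marker sum given above did not overlap at 24 h and overlapped at 48 h, and those of the enzymes did not overlap at either. The enzyme sum weighs most on Sqle and Fdft1, the brightest of the 7 genes. Of all tested single probe sets, 18.9% at 24 h and 9.91% at 48 h did not overlap, with lactacystin lower.

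Of 8 neuron markers tested on both array designs 2 fell at each time, and none passed in the direction of a rise. Of all tested probe sets 6.63% fell at 24 h and 3.57% at 48 h. Stmn2, a neuronal microtubule regulator, fell at both times, with -0.74 ± 0.11 (adjusted p = 0.00107, limma) and -0.57 ± 0.11 (adjusted p = 0.00678). The other was Syt1 at 24 h (-1.477, with -0.261 at 48 h) and Snap25 at 48 h (-0.555, with -0.008 at 24 h). Tubb3, on U74Av2 alone, changed by -0.23 at 24 h and -0.62 at 48 h for 161612_f_at, and by -0.06 and -0.25 for 160462_f_at. Of 6 microglia markers tested on both array designs 1 rose at 24 h and 3 at 48 h. Of 6 fibroblast and mural markers so tested 1 rose at 24 h (Tagln) and 2 at 48 h (Tagln and Acta2). Col1a1, Col3a1, Dcn and Lum did not pass at either time, and their 24 h changes were negative. On U74Av2 alone Col1a2 161156_r_at changed by -0.54 at 24 h and -0.11 at 48 h, and Pdgfrb by -0.63 and 0.27. No tested marker of oligodendrocytes, endothelium or red cells passed at either time. Itgam, from the list of microglia and macrophage markers, and the endothelial genes Cldn5, Tek and Cdh5 lay under a signal of 32 in every array. The part of these changes in the values of the enzymes was not tested.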

How the data were processed

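The authors deposited linear intensities, 1 per probe set and array. MAS5 is the tool named per the submitters' processing notes, and no version of it is given in the sources used here. Detection calls were not used here. With 66 control probe sets removed, arrays were scaled each to a 2% trimmed mean of 500 over the 9977 shared probe sets, 32 was added and log2 taken, which understates the change of low genes. The pseudocount exceeded 19.9% to 27.8% of the values of an array. The 2993 probe sets with the lowest mean log2 value (30%) were left out and 6984 tested with limma 3.58.1 in R 4.3.3: the 4 groups with array design as a covariate, 5 residual degrees of freedom, eBayes with trend, two-sided, Benjamini-Hochberg adjustment, threshold 0.05. Lss and Msmo1 were fitted on the 6 U74Av2 arrays with 8696 of 12422 probe sets and 2 residual degrees of freedom. The fit was tested on simulated data. Batch, where it follows array design, cannot be told apart from it, and the number of arrays limits the precision.

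Probe sets were named from the platform annotation, updated by Entrez identifier through a RefSeq table. Of the shared ones 8724 had 1 symbol, 346 several and 907 none. Those with several symbols gave no gene name. The members and lists were chosen with earlier results of these data known. All probe sets of the enzymes are named, and of each other list at most the 3 with the largest 24 h change. The cell markers named and the second probe sets of Mvk and Tm7sf2 were chosen after their values were seen. The brightest probe set stood for a gene. Gene likeness is Pearson correlation over the 10 arrays with design removed. Alternatives were other pseudocounts, filters, scalings, designs, variance models, single times, a replicate block and leaving out each array. No 2 arrays held identical values.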

Additional observations from a re-analysis of the deposited data

How the results depend on the processing

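No change of an enzyme against control reversed. Of the 12 probe sets of the enzymes, 8 at 24 h and 7 at 48 h passed in every alternative, and every change stayed negative in both comparisons. The count of shared probe sets of the enzymes that fell was 7 to 10 of 10 at 24 h and 7 to 8 of 10 at 48 h when 1 array was left out, and as low as 7 at 24 h and 6 at 48 h without the design covariate. Of the U74Av2-only pair, 1 fell at 24 h (1 to 2 with 1 array left out) and 2 at 48 h (2 to 2). With a pseudocount of 64, with the lowest 50% of probe sets left out, or with the filter on mean scaled signal, chosen after seeing the data, 2 fell at 24 h, and Lss then had an adjusted p of 0.0454, 0.0391 and 0.0497 (limma). With no filter or without trend 1 fell at 48 h. Sc5d 102768_i_at was also lost without trend (adjusted p = 0.0618 at 24 h and 0.0527 at 48 h) and on the 48 h arrays alone (0.0517).

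Counts over all probe sets moved more. Without the design covariate 250 passed at 24 h (1032 with it), 113 at 48 h (721), 2 for the difference between the times (90) and 133 between the lactacystin times (803). On U74Av2 arrays alone 561 passed at 24 h, 384 at 48 h and 12 for the difference. The 48 h arrays alone gave 448. The difference between the times gave 48 with no filter, 167 with median scaling and 37 without trend. With 1 array left out the counts ran from 310 (without control 24 h replicate 2) to 1102 at 24 h, from 211 (without control 48 h replicate 2) to 824 at 48 h, from 5 to 188 for the difference, from 324 to 827 between the lactacystin times and from 0 to 2 between the control times. The cause was not tested, other than that settings with fewer arrays have fewer degrees of freedom. Median scaling turned the balance of calls: it moved the 48 h median of all probe sets to -0.11 from 0.04 and the share of rises among the calls to 31% from 65.5% (between the lactacystin times to 29.8% from 53.8%). Same-numbered samples deviated together (r over 0.1) in 9 of 13 pairs with group removed, and in 2 of 13 with group and design removed. Replicate number largely follows array design, and removing group and design from so few arrays itself sets such deviations against each other. This check therefore cannot tell if the numbers pair the samples, and the main fit takes them as unpaired. With a replicate block beside array design 779, 541, 60, 562 and 0 probe sets passed in these 5 comparisons, and 9 and 8 shared probe sets of the enzymes fell at 24 h and 48 h, Sc5d 102769_f_at at 24 h being lost (adjusted p = 0.0501).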
